A study of Mus musculus with 6 samples.

Results

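The proliferation genes are 42 protein-coding genes that cells use to copy their DNA and to divide. They were chosen by symbol, and all 42 were found among the 51826 genes of the count table. They were measured by polyA RNA sequencing in the cerebral cortex of male mice 6 to 8 weeks old, 3 days after a single dose of 10 Gy of X-rays to the whole brain. The *Lgmn*+/+-IR libraries (n = 3) came from mice with intact *Lgmn*, the gene of asparagine endopeptidase (AEP, or legumain). The *Lgmn*-/--IR libraries (n = 3) came from AEP knockout mice made from a floxed allele by matings with Cre mice. The study lists the mice of both genotypes as BALB/c, and every library of both genotypes was irradiated. Non-irradiated cortex was not analysed here, so each difference below is one of genotype after irradiation, and no value shows an effect of radiation. The promoter that drives Cre was not given in the sources used here, and neither was whether a library holds 1 animal or several, so p-values measure the spread between these libraries. Since every library was irradiated, the groups are written below as *Lgmn*+/+ and *Lgmn*-/-.

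A dividing cell licenses its replication origins with the MCM helicase, copies its DNA in S phase with the help of the sliding clamp PCNA and of freshly made nucleotides, and then condenses and separates its chromosomes in mitosis under the control of CDK1 and its cyclins. S phase genes are largely switched on by E2F factors, and mitosis genes by B-MYB and FOXM1 together with the MuvB complex. Most cells of the adult cortex, neurons above all, have left the cell cycle, and oligodendrocyte precursors are the main cells there that still divide, with some microglia and endothelial cells. Ionizing radiation is known to stop the cycle and to deplete dividing cells in the brain.

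The library totals lay between 41874462 and 46829441 counts. *Lgmn* had 5558, 5528 and 5775 counts in *Lgmn*+/+ and 3703, 3269 and 4109 in *Lgmn*-/- (log2 fold change -0.64, adjusted p = 0.0315 by edgeR's quasi-likelihood test, and up to 0.396 under the alternatives), and these counts cover the whole gene. All 8 markers of cortical projection neurons were detected in every library, with at least 977 counts each, as the cortex label implies, and the 7 markers of T and B cells together had 22 to 36 counts a library. The libraries differed in striatal genes: the 6 markers summed to 892, 1456 and 1363 CPM (counts scaled to a common library size) in *Lgmn*+/+ replicates 2 and 3 and *Lgmn*-/- replicate 1, and to 284 to 363 CPM in the other 3. *Lgmn*-/- replicate 1 also had the highest sums of the neural progenitor and neuroblast markers (209 CPM, against 113 to 163 in the other libraries) and of the endothelial markers (217 CPM, against 114 to 190). The 6 erythroid markers summed to 7.59 to 15.8 CPM in *Lgmn*+/+ and 233 to 2271 CPM in *Lgmn*-/-.

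All 42 proliferation genes were detected in every library, with 8 counts or more, and all passed the filter on low counts. Most stood at a low level. On the FPKM scale, which corrects for transcript length, 29 of the 42 (69.0%) had a mean under 1, against 26.3% of the 18345 genes tested, and their median was 0.707 against 4.59 over all genes tested. Levels went with role. Of 22 genes of mitosis, 21 had a mean under 1 FPKM (median 0.473), whereas 11 of 17 genes of replication were above 1 (median 1.62).

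*Pcna*, which encodes the sliding clamp of the DNA polymerases and also serves DNA repair, had by far the highest level, 22.5 FPKM. It was followed by *Ccne1* (8.05 FPKM), the cyclin that drives entry into S phase, by the transcription factor *E2f1* (6.70), by the helicase subunit *Mcm7* (5.91) and by *Rrm1* (3.69), the large subunit of ribonucleotide reductase. At the other end stood *Cenpf* (0.126 FPKM) and *Bub1b* (0.134), which encode a kinetochore protein and a spindle checkpoint protein. *Mki67*, the source of the Ki-67 antigen used to stain dividing cells, had 0.225 FPKM. In single libraries, *Pcna* ranged from 20.1 to 23.9 FPKM and *Mki67* from 0.132 to 0.318, so *Pcna* was above *Mki67* in every library. A near-identical copy, *Pcna-ps2* (99.2% identity over 781 bases), had 41 to 55 counts a library, against 1430 to 1887 for *Pcna*, 3 pseudogenes of *Ccnb1* had 0 to 2, and those of *Cdc6*, *Mcm7*, *Mybl2* and *Tyms* had 0 or 1. Exon bases are shared with another protein-coding gene by 11 of the 42, on the same strand for *Foxm1* and on the opposite strand for the other 10, and the sources used here do not say whether the counting used strand.

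**Figure D1:**
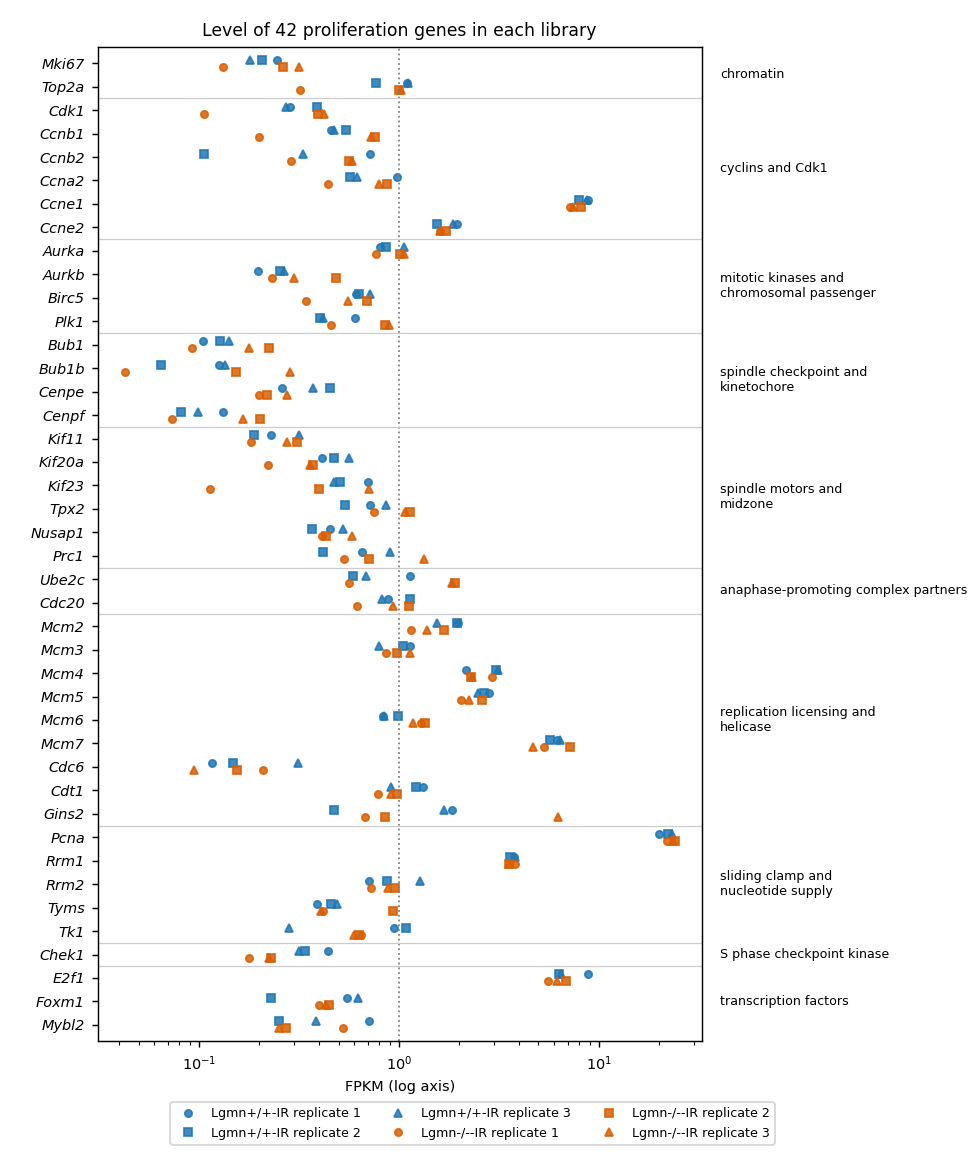
FPKM (log axis) of the 42 genes in each of the 6 libraries, grouped by role; blue symbols are *Lgmn*+/+ and orange symbols *Lgmn*-/-, with 1 symbol shape per replicate, and the dotted line marks 1 FPKM. The mitosis genes lie mostly left of the line, and *Pcna*, at 20.1 to 23.9, lies farthest right.

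The promoters of these genes carry 2 well-known kinds of signal, which are shown here because the members of each kind were measured together. Mitosis genes are known for a cell cycle homology region (CHR), a site of the MuvB complex, with CCAAT boxes, the sites of NF-Y, next to it, and S phase genes for E2F sites. RefSeq windows of GRCm38.p6, from 250 bases before to 50 bases after a transcription start, were matched by symbol for 34 of the 42 genes (36 windows). In the searches, on both strands, CHR was TTTGAA, the CCAAT box was CCAAT, and E2F was TTTCCCGC, TTTCGCGC, TTTGCCGC or TTTGGCGC. CHR letters were in 14 of 19 windows of mitosis genes (73.7%), in 1 of 15 windows of replication genes (6.67%) and in 17.9% of all 32851 windows. CCAAT was in 17 of the 19 (89.5%), in 9 of the 15 (60.0%) and in 37.4% of all windows. The E2F letters were in 1 of the 19 (5.26%), in 6 of the 15 (40.0%) and in 2.26% of all windows. These are matches of letters, and no binding was measured.

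Below are the 210 bases before the start of 4 mitosis genes and 2 replication genes, 5′ to 3′ on the strand of the gene, with the searched letters in capitals. They were chosen after the matches were seen, as windows that show the signals of each kind. Some capitals are motifs that lie on the opposite strand and are read here in reverse complement, and neighbouring capitals can be overlapping matches.
Mki67: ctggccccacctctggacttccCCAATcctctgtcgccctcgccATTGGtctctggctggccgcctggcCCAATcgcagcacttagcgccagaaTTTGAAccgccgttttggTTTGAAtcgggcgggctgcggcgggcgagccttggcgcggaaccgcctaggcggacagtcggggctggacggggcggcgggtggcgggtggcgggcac
Top2a: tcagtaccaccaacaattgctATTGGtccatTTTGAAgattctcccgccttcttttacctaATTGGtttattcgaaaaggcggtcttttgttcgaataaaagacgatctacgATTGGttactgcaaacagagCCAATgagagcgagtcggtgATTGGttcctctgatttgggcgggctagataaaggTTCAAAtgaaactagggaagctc
Cdk1: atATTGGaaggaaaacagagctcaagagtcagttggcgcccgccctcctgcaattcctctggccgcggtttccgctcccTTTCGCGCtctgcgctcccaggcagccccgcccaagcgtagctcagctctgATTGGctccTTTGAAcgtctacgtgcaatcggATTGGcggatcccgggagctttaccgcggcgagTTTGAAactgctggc
Ube2c: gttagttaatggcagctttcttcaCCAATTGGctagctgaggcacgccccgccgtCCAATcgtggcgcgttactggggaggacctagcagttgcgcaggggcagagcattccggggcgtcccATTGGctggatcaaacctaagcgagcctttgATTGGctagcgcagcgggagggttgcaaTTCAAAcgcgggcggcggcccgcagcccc
Mcm5: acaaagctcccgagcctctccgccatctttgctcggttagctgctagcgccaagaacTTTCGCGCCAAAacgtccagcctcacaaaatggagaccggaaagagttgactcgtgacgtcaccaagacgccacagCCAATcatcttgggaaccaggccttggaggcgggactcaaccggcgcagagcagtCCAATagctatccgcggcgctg
Mcm6: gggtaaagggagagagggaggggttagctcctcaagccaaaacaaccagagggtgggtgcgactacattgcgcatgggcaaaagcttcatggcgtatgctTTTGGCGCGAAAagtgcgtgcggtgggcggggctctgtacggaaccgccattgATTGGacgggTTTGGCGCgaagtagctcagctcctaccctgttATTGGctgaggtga

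The *Mki67* stretch is chr7:135716380-135716589 on the minus strand. That of *Top2a* is chr11:99024190-99024399 on the minus strand, that of *Cdk1* is chr10:69352913-69353122 on the minus strand, and that of *Ube2c* is chr2:164769719-164769928 on the plus strand. The *Mcm5* stretch is chr8:75109299-75109508 on the plus strand and that of *Mcm6* is chr1:128359706-128359915 on the minus strand. *Mki67* holds a pair of CHR matches, which begin 116 and 98 bases before the start, below 3 CCAAT boxes. In *Cdk1* a CHR match lies 15 bases before the start, and an E2F match 131 bases before it. *Ube2c* has its CHR match 29 bases before the start. *Mcm6* and *Mcm5* have none, and each holds an overlapping pair of E2F matches on opposite strands, which begin 110 and 106 bases before the start in *Mcm6* and 153 and 149 in *Mcm5*.

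The genotypes were then compared, to ask whether loss of AEP changed the level of proliferation genes in irradiated cortex. No proliferation gene passed the test. With edgeR's quasi-likelihood test and p-values adjusted (Benjamini-Hochberg) over all 18345 genes tested, 0 of 42 had an adjusted p under 0.05, a call made for 3.33% of all genes tested. With the absolute log2 fold change over 1 that the study also asked for, the count was again 0, against 2.06%. At an unadjusted p under 0.05, 1 of 42 passed (*Mcm6*), against 18.6% of all genes. DESeq2 called 1 (*Mcm6*), and limma-voom and limma on log2(FPKM + 1) called 0. Of the 42 genes, 19 were higher and 23 lower in *Lgmn*-/-, and their median log2 fold change was -0.05 (all genes tested, -0.01). The members' summed level was 193 ± 9.88 CPM in *Lgmn*+/+ and 198 ± 30.3 CPM in *Lgmn*-/- (SD, n = 3 each). In bulk cortex, fewer dividing cells and less RNA in each of them cannot be told apart.

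How large a difference the data leave room for is given by the intervals. The 95% interval of the log2 fold change lay within -1 and 1 for 22 of the 42 genes, against 70.3% of all genes tested. They were 12 of the 17 replication genes, 9 of the 22 mitosis genes and 1 of the 3 transcription factors. *Rrm1* had the narrowest interval, from -0.20 to 0.27, and *Pcna* had one from -0.11 to 0.37. *Gins2* had an interval from -1.52 to 3.56, and *Bub1b* one from -0.69 to 2.27. The variation between replicates, as the median biological coefficient of variation, was 28.9% for the mitosis genes, 18.8% for the replication genes and 17.8% for all genes tested.

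**Figure D2:**
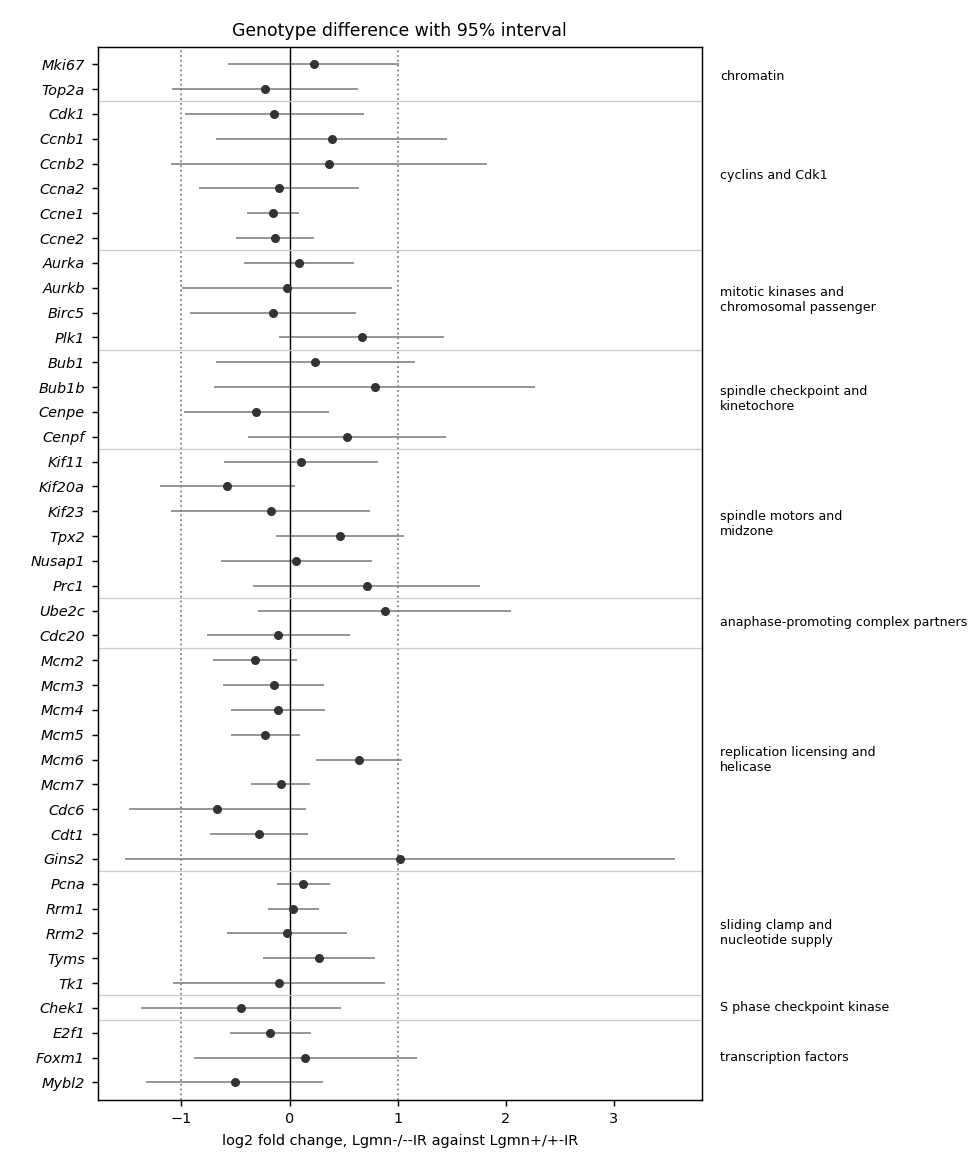
log2 fold change of *Lgmn*-/- against *Lgmn*+/+ for each gene (points) with its 95% interval derived from edgeR's quasi-likelihood F-test (bars). Dotted lines mark -1 and 1. Only the interval of *Mcm6*, 0.25 to 1.04, leaves out 0.

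Among the regulators of licensing and the helicase, *Mcm6*, a subunit of the ring that unwinds DNA at the replication fork, was the single member whose *Lgmn*-/- libraries all lay above the *Lgmn*+/+ libraries, against 12.4% of all genes tested. It had 106, 143 and 138 counts in *Lgmn*+/+ and 196, 227 and 199 in *Lgmn*-/-, or 2.95 ± 0.43 and 4.61 ± 0.25 CPM (SD, n = 3). Its difference was 0.64 on the log2 scale, with a standard error of 0.17 (adjusted p = 0.0995 by edgeR), and it was positive under all 17 alternatives, with adjusted p from 0.0257 to 0.377. *Mcm6* was singled out after its values were seen. It lies on chromosome 1 of GRCm38 from 128331590 to 128359664.

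The other subunits of the same ring did not follow it. *Mcm2* had 311, 299 and 266 counts in *Lgmn*+/+ and 201, 281 and 243 in *Lgmn*-/- (log2 fold change -0.32, adjusted p = 0.357 by edgeR). *Mcm5* had 372, 358 and 383 counts in *Lgmn*+/+ and 278, 352 and 350 in *Lgmn*-/-, a difference of -0.23 on the log2 scale (adjusted p = 0.424 by edgeR), with every *Lgmn*-/- value below every *Lgmn*+/+ value in CPM, while the FPKM overlapped (2.05 to 2.61 against 2.49 to 2.84). *Mcm7* had 591, 588 and 657 against 596, 672 and 519 counts (log2 fold change -0.08). For *Mcm3* and *Mcm4* the log2 fold changes were -0.15 and -0.11. Thus 5 of the 6 ring subunits had values below 0 and 1 above, and none passed the adjusted test.

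*Cdc6* and *Cdt1* encode the loaders that place the MCM ring on origins. *Cdc6* had the largest decrease in value of all members, with 26, 31 and 25 counts in *Lgmn*+/+ and 12, 17 and 24 in *Lgmn*-/- (log2 fold change -0.67, 95% interval -1.49 to 0.15, adjusted p = 0.358 by edgeR). Its *Lgmn*-/- libraries were all below the *Lgmn*+/+ libraries in CPM, with the nearest pair at 0.547 and 0.549 CPM, but on the FPKM scale they overlapped, at 0.117, 0.149 and 0.313 against 0.209, 0.155 and 0.095. *Cdt1* had 85 to 111 counts in *Lgmn*-/- and 104 to 127 in *Lgmn*+/+ (log2 fold change -0.28).

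*Gins2*, a subunit of the GINS complex of the active helicase, was the most variable member. It had 344, 79 and 313 counts in *Lgmn*+/+ and 51, 169 and 1285 in *Lgmn*-/-, a 25.5-fold range between the lowest and highest CPM. Both ends of that range lay in *Lgmn*-/-, and the log2 fold change of 1.02 had a standard error of 1.08. Without *Lgmn*-/- replicate 3 it was -1.22. Of its exon bases, 67.3% overlap *Gse1* on the opposite strand, which had 2154 to 4478 counts a library. Over its whole length *Gse1* had 4478 counts in *Lgmn*-/- replicate 1, where *Gins2* had 51, and 2808 in replicate 3. The part of the shared bases in the *Gins2* counts was not tested.

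The clamp and nucleotide genes follow. *Pcna* had 1430, 1588 and 1802 counts in *Lgmn*+/+ and 1688, 1832 and 1887 in *Lgmn*-/- (log2 fold change 0.13, adjusted p = 0.552 by edgeR). *Rrm2*, the small subunit of ribonucleotide reductase, whose level rises in S phase, had 74, 87 and 128 counts against 83, 107 and 101 (log2 fold change -0.02). The *Lgmn*-/- values of *Rrm2* lay within its *Lgmn*+/+ range in CPM, and those of *Pcna* overlapped its range in part, at 38.0 to 43.0 against 33.5 to 39.6 CPM. *Rrm1* had a log2 fold change of 0.03. *Tyms*, which encodes thymidylate synthase, had one of 0.27, and *Tk1*, the thymidine kinase of S phase, one of -0.10. *Chek1*, the checkpoint kinase that restrains the cycle when replication stalls, had 61, 43 and 25 counts in *Lgmn*+/+ and 24, 38 and 36 in *Lgmn*-/- (log2 fold change -0.45, adjusted p = 0.589 by edgeR), and the groups overlapped in CPM. On the FPKM scale they did not, at 0.442, 0.342 and 0.316 against 0.179, 0.229 and 0.225 FPKM (adjusted p = 0.192 by limma on log2(FPKM + 1), with an unadjusted p under 0.05).

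The cyclins that act at the start of S phase were steady. *Ccne1* had 831, 744 and 874 counts in *Lgmn*+/+ and 702, 814 and 750 in *Lgmn*-/- (log2 fold change -0.15, 95% interval -0.39 to 0.09), and *Ccne2* had a log2 fold change of -0.14. Among the transcription factors, *E2f1* had 1160, 823 and 918 counts in *Lgmn*+/+ and 775, 965 and 907 in *Lgmn*-/- (log2 fold change -0.18), with *Lgmn*+/+ replicate 1 the highest. *Mybl2*, which encodes B-MYB, had 64, 29 and 41 against 37, 32 and 28 counts (log2 fold change -0.51, adjusted p = 0.485 by edgeR), again with *Lgmn*+/+ replicate 1 highest. *Foxm1*, the forkhead factor of mitosis genes, ranged from 47 to 118 counts in *Lgmn*+/+ and from 53 to 108 in *Lgmn*-/-.

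**Figure D3:**
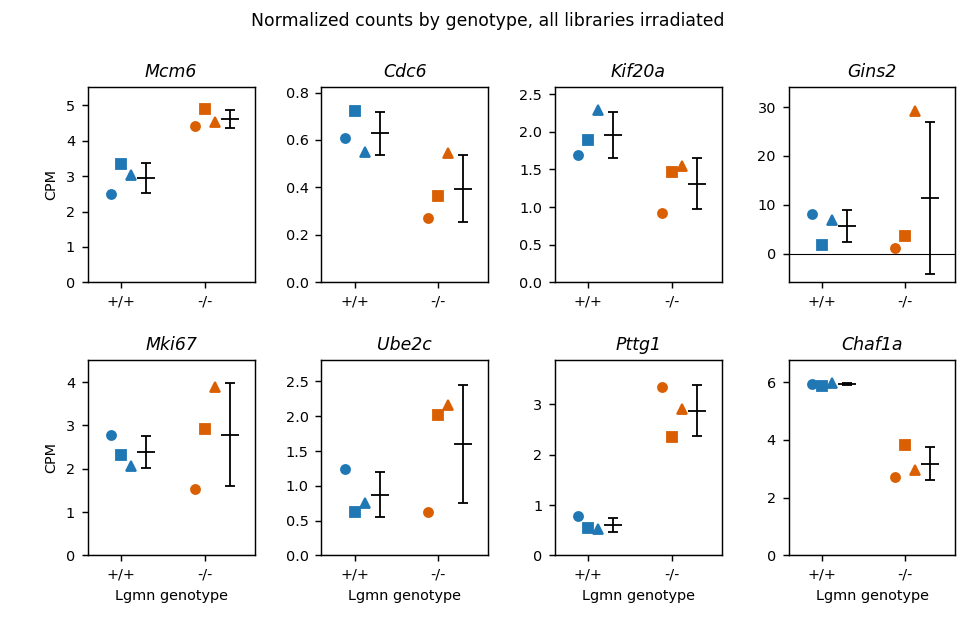
CPM (linear axis) in each library for 6 members and for *Pttg1* and *Chaf1a*, with 1 symbol shape per replicate and, to the right of each group, the mean ± SD (n = 3). All *Lgmn*-/- values of *Mcm6* and *Pttg1* lie above those of *Lgmn*+/+, an order that 12.4% of all genes tested have. All *Lgmn*-/- values of *Cdc6*, *Kif20a* and *Chaf1a* lie below, as for 13.3% of all genes tested. The *Gins2* mean of *Lgmn*-/- rests on 1 library at 1285 counts.

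The mitosis genes differed more between *Lgmn*-/- libraries than between genotypes. In all 22 of them *Lgmn*-/- replicate 1 was the lowest of the 3 *Lgmn*-/- libraries, as it was for 29.1% of all genes tested, and in 15 it was the lowest of all 6 libraries, against 14.6% of all genes. The median ratio of its CPM to the mean of the other 2 *Lgmn*-/- libraries was 0.512 over the mitosis genes, 0.913 over the replication genes and 0.998 over all genes tested. The 22 genes summed to 32.5, 27.2 and 32.1 CPM in *Lgmn*+/+ and to 20.9, 38.2 and 43.5 CPM in *Lgmn*-/-, or to 30.6 ± 2.97 and 34.2 ± 11.8 CPM (SD, n = 3 each). Thus the *Lgmn*-/- libraries stood at both ends, with *Lgmn*-/- replicate 1 below and replicates 2 and 3 above all *Lgmn*+/+ libraries.

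In single genes this order held in CPM for 8 of the 22 (*Mki67*, *Top2a*, *Ccnb1*, *Aurka*, *Bub1b*, *Cenpf*, *Prc1* and *Ube2c*). The other 14 had another order. Of all 18345 genes tested, 201 had it. The order was read from the sums of these same 22 genes, so a larger share among them is in part built in. On the FPKM scale *Top2a*, *Aurka* and *Prc1* did not have the order, whereas *Cdk1* and *Bub1* did. *Mki67* had 119, 99 and 94 counts in *Lgmn*+/+ and 68, 136 and 171 in *Lgmn*-/- (log2 fold change 0.22, standard error 0.34). *Top2a*, the topoisomerase that untangles replicated chromosomes, had 116, 116 and 133 against 49, 136 and 136 (log2 fold change -0.23). In both genes *Lgmn*-/- replicate 1 was the lowest library, and the other 2 *Lgmn*-/- libraries were above the *Lgmn*+/+ range in counts.

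*Cdk1*, the kinase that starts mitosis, had 41, 39 and 32 counts in *Lgmn*+/+ and 20, 47 and 38 in *Lgmn*-/- (log2 fold change -0.14). Its partner *Ccnb1*, cyclin B1, had 46, 38 and 51 against 23, 76 and 83 (log2 fold change 0.39). *Ccnb2*, cyclin B2, had its lowest value, 8 counts, in *Lgmn*+/+ replicate 2, and 23 to 53 counts in the other libraries. *Ccna2*, cyclin A2, ranged from 74 to 130 counts in *Lgmn*+/+ and from 63 to 116 in *Lgmn*-/-.

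Of the mitotic kinases and the chromosomal passenger complex, *Aurka*, which acts at spindle poles, had 70, 76 and 80 counts in *Lgmn*+/+ and 64, 90 and 93 in *Lgmn*-/- (log2 fold change 0.09). *Plk1*, a kinase of mitotic entry, had the largest difference in value of this group, 0.67 on the log2 scale (adjusted p = 0.326 by edgeR), with 43 to 64 counts in *Lgmn*+/+ and 52 to 105 in *Lgmn*-/-. *Aurkb* and *Birc5*, which encode the kinase of the passenger complex and survivin, had log2 fold changes of -0.02 and -0.16.

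The spindle checkpoint and kinetochore genes had the lowest levels. *Bub1b* had 16, 10 and 21 counts in *Lgmn*+/+ and 8, 26 and 49 in *Lgmn*-/- (log2 fold change 0.79, 95% interval -0.69 to 2.27). *Cenpe*, a kinetochore motor, had 42, 61 and 87 counts against 49, 58 and 50 (log2 fold change -0.31). The *Lgmn*-/- values of *Cenpe* lay inside its *Lgmn*+/+ range. *Bub1* and *Cenpf* had log2 fold changes of 0.24 and 0.53.

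Among the motors and midzone proteins, *Kif20a*, a kinesin of cytokinesis, had all *Lgmn*-/- libraries below the *Lgmn*+/+ libraries, with 72, 81 and 104 counts against 41, 68 and 68 (log2 fold change -0.57, 95% interval -1.20 to 0.05, adjusted p = 0.304 by edgeR). With *Mcm5* and *Cdc6* it makes 3 of 42 genes with that order, against 13.3% of all genes tested. *Kif20a* overlaps *Cdc23* on the opposite strand over 29.3% of its exon bases, and *Cdc23* had 1964 to 2197 counts a library (log2 fold change -0.07). *Cdc23* had the same order, at 42.30 to 45.78 CPM in *Lgmn*-/- against 45.84 to 48.28 CPM in *Lgmn*+/+. The part of the shared bases in the *Kif20a* counts was not tested. *Tpx2*, a spindle assembly factor, had 137, 93 and 155 counts in *Lgmn*+/+ and 136, 193 and 216 in *Lgmn*-/- (log2 fold change 0.46, adjusted p = 0.374 by edgeR). *Prc1*, which bundles midzone microtubules, had 43 to 76 counts against 44 to 151, and *Kif11*, *Kif23* and *Nusap1* had log2 fold changes of 0.11, -0.18 and 0.06.

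*Ube2c* and *Cdc20* work with the anaphase-promoting complex, which marks cyclin B and securin for destruction. *Ube2c* had 53, 27 and 34 counts in *Lgmn*+/+ and 28, 94 and 95 in *Lgmn*-/- (log2 fold change 0.88, standard error 0.50, adjusted p = 0.394 by edgeR). *Lgmn*-/- replicates 2 and 3 lay above all *Lgmn*+/+ libraries, and replicate 1 was level with *Lgmn*+/+ replicate 2, at 0.630 CPM each. The place of *Ube2c* among the genes with the order of the sums thus rests on a near tie. *Cdc20* had 70 to 80 counts in *Lgmn*+/+ and 46 to 96 in *Lgmn*-/- (log2 fold change -0.11).

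**Figure D4:**
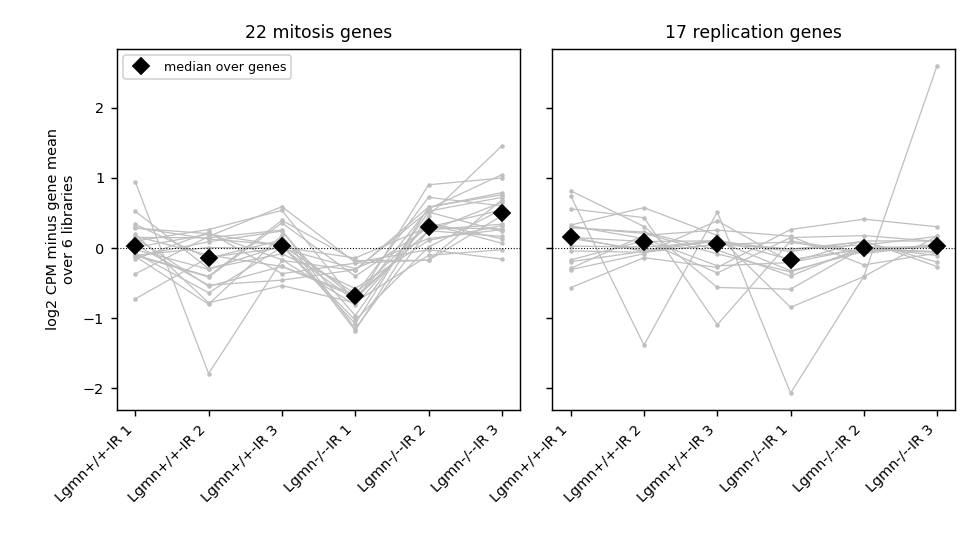
log2 CPM of each gene minus its mean over the 6 libraries, for 22 mitosis genes (left) and 17 replication genes (right); grey lines join the values of 1 gene and diamonds are medians. The mitosis median is -0.68 in *Lgmn*-/- replicate 1 and 0.29 and 0.50 in replicates 2 and 3, and the replication medians lie between -0.16 and 0.15.

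Because *Lgmn*-/- replicate 1 stood apart, the comparison was also made without it, a choice that leaves 2 *Lgmn*-/- libraries. It had been singled out as the lowest *Lgmn*-/- library in all 22 mitosis genes, so leaving it out raises their *Lgmn*-/- means. An upward shift of the mitosis genes is thus built into that choice, while the share over all genes is not. With that library left out, the members' median log2 fold change was 0.13. That of the mitosis genes went from 0.10 to 0.30, with 20 of 22 above 0. Of the mitosis genes, 7 had an unadjusted p under 0.05, all higher in *Lgmn*-/- (*Ccnb1*, *Plk1*, *Bub1b*, *Cenpf*, *Tpx2*, *Prc1* and *Ube2c*), against 16.3% of all genes tested, and again none had an adjusted p under 0.05 (lowest 0.150 by edgeR, for *Ube2c*). *Ube2c* had a log2 fold change of 1.26 without that library, and *Mki67* one of 0.52 (adjusted p = 0.349 by edgeR). Without *Lgmn*-/- replicate 3 the median of the mitosis genes was -0.10, and without *Lgmn*+/+ replicate 2 it was -0.03, so its sign depended on single libraries. The replication median lay between -0.15 and -0.09 with any 1 library left out.

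Sums of cell type markers are set beside these levels. *Lgmn*+/+ replicates 2 and 3, with striatal sums of 892 and 1456 CPM, had 27.2 and 32.1 CPM of mitosis genes, and *Lgmn*-/- replicate 1, with 1363 CPM of striatal markers, had 20.9 CPM. The oligodendrocyte precursor markers summed to 303, 321 and 252 CPM in *Lgmn*+/+ and 309, 244 and 301 CPM in *Lgmn*-/-. Of these sums *Olig1* alone gave 101 to 142 CPM a library, and *Pdgfra* gave 34.7, 44.6 and 38.5 against 42.6, 29.7 and 34.9 CPM. The microglia markers summed to 228, 258 and 232 CPM against 218, 202 and 195 CPM. The part of cell makeup in the difference between libraries was not tested. With the striatal marker level as a covariate, an alternative chosen after seeing the data, the median of the mitosis genes was -0.06 and none was called. When the 3 libraries with high striatal sums were left out, which leaves 1 *Lgmn*+/+ library that is assumed to vary like the *Lgmn*-/- libraries, it was 0.30 and none was called.

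The rest of the cell cycle was read from 4 lists of 104 further genes, 101 of which were tested. Of these, 3 were called (1 higher and 2 lower in *Lgmn*-/-) and 15 had an unadjusted p under 0.05, against 3.33% and 18.6% of all genes tested, so that neither count is above the share over all genes. Their median log2 fold change was -0.05. *Cdkn2a*, *Orc1* and *Sgo1* were under the filter, with 0 to 18 counts a library. Of the 11 G1 cyclins and kinases none was called, and *Ccnd1*, cyclin D1, had 1773 to 2263 counts in *Lgmn*+/+ and 1814 to 2062 in *Lgmn*-/- (log2 fold change -0.09). Of the 18 cell cycle brakes tested, 1 was called. This was *Btg2*, an antiproliferative gene that p53 induces, with 2040, 1982 and 2053 counts in *Lgmn*+/+ and 794, 1330 and 1114 in *Lgmn*-/- (log2 fold change -0.95, adjusted p = 0.0313 by edgeR), and it lost the call under 7 of 17 alternatives (adjusted p up to 0.215). The p53 targets *Cdkn1a*, which encodes the CDK inhibitor p21, and *Ccng1*, cyclin G1, had log2 fold changes of 0.02 and -0.02.

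Of 29 other S phase genes tested, 1 was called. Values below 0 were found for 21 of the 29, against 9482 of all 18345 genes tested, and the median log2 fold change of the 29 was -0.11. *Chaf1a*, the large subunit of the chromatin assembly factor that loads histones behind the fork, fell, with 254, 252 and 271 counts in *Lgmn*+/+ and 121, 177 and 130 in *Lgmn*-/- (log2 fold change -0.90, standard error 0.17, adjusted p = 0.0372 by edgeR). The genotypes did not overlap. *Chaf1a* lies on chromosome 17 from 56040439 to 56072289, and 52.5% of its exon bases overlap *Ubxn6* on the opposite strand, which had 3124 to 3904 counts a library and a log2 fold change of 0.03. The call was lost under 9 of 17 alternatives, with adjusted p up to 0.435, and the log2 fold change stayed between -1.06 and -0.51.

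Of 43 other mitosis genes tested, 1 was called. *Pttg1*, which encodes securin, the inhibitor that holds separase until anaphase and a substrate of the anaphase-promoting complex, rose, with 33, 23 and 24 counts in *Lgmn*+/+ and 149, 109 and 128 in *Lgmn*-/- (log2 fold change 2.22, standard error 0.26, adjusted p = 0.00593 by edgeR). Each *Lgmn*-/- library was above each *Lgmn*+/+ library, and its highest value was in *Lgmn*-/- replicate 1, where the 22 mitosis genes were lowest among the *Lgmn*-/- libraries. It also passed the threshold on the fold change. *Pttg1* lies on chromosome 11 from 43420250 to 43426251. It was called under 16 of 17 alternatives, and with the 3 high-striatal libraries left out its log2 fold change was 1.77 (adjusted p = 0.167 by edgeR). The count of calls over the 4 lists was 1 to 3 with single libraries left out, and it was 1 without any of the *Lgmn*+/+ replicates 1, 2 and 3 or without *Lgmn*-/- replicate 3.

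For the other cells that the cortex samples could hold, the marker lists gave these counts, against 3.33% of all genes called and 18.6% with an unadjusted p under 0.05. None of the markers of cortical projection neurons (0 of 8), striatum (0 of 6), oligodendrocyte precursors (0 of 9), microglia (0 of 8), endothelium (0 of 6) or T and B cells (0 of 1 tested) was called by edgeR, and at an unadjusted p under 0.05 these lists had 0, 0, 1, 2, 0 and 0 genes. All 8 neural progenitor and neuroblast markers tested had values above 0, against 48.3% of all genes tested. Of the 8, 3 had an unadjusted p under 0.05, and 2 were called, *Dlx1* (log2 fold change 0.67) and *Neurog2* (log2 fold change 2.38). The value of *Eomes* (log2 fold change 3.69) rested on *Lgmn*-/- replicate 1, with 486 counts there and 0 in replicates 2 and 3. In *Lgmn*-/- replicate 2, *Dlx2* and *Nes* were below every *Lgmn*+/+ library, at 7.58 and 9.95 CPM. Of 6 astrocyte markers, 5 had values above 0 and 3 an unadjusted p under 0.05, and *Aqp4* was called (log2 fold change 0.55). All 5 erythroid markers tested were called higher. Of 6 myeloid markers only *Ly6c2* was tested, and it was called lower (log2 fold change -3.31). The rest were under the filter, with 1 to 8 counts a library for *Ccr2* and 0 to 2 for *Mpo* and *Elane*. Among them *S100a8* and *S100a9* were highest in *Lgmn*-/- replicate 1, at 23 and 32 counts, so *Ly6c2* does not stand for the list. Of the 5 markers of choroid plexus and ependyma, 2 had an unadjusted p under 0.05, both lower, and *Foxj1* was called (log2 fold change -0.73). Their part in the values of the proliferation genes was not tested.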

How the data were processed

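The authors used Trimmomatic 0.36 for read filtering, HISAT2 2.0 for mapping and StringTie 1.3.3b for expression values, and the submitters' processing notes name GRCm38. They deposited raw counts per gene without normalization, and FPKM values, corrected by the authors for transcript length and depth, were deposited for the same libraries. The read counter, its use of strand and the annotation release are not given in the sources used here.

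The counts were tested in R 4.3.3 with edgeR 4.0.16 (TMM, filterByExpr by genotype, quasi-likelihood F-test, Benjamini-Hochberg adjustment over 18345 genes), and CPM are TMM-normalized. A call is an adjusted p under 0.05. edgeR's test gives no standard error, so it was derived as the absolute log2 fold change over the square root of F. The 95% intervals are the log2 fold change plus and minus a t quantile times that standard error. The mean chi-square per gene between libraries of 1 genotype was 28.8 to 103, and none was a duplicate. The members and gene lists were chosen with earlier results of these data known. Values in every library are given for the 3 members with the largest log2 fold change in each direction, the member with the highest FPKM in each role, and *Mki67*, *Top2a*, *Cdk1*, *Ccnb1*, *Mcm2*, *Mcm5*, *Pcna*, *Rrm2* and *E2f1*. Positions and overlaps come from GENCODE M21 (GRCm38), near-identical copies from BLAST (at least 95% identity over at least 500 bases), and promoters from RefSeq.

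The alternatives were other size factors, DESeq2 1.42.0, limma 3.58.1 (voom, and log2(FPKM + 1) and log2(FPKM + 0.1)), no filter, at least 10 counts in every library, the replicate number as a block, each library left out, and 2 settings on striatal markers that were chosen after seeing the data. The test was tried on simulated counts. No molecular identifiers were used, so intervals from counts leave out amplification error.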

Additional observations from a re-analysis of the deposited data

How the results depend on the processing

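No proliferation gene was called under 16 of the 17 alternatives, and DESeq2 called 1 (*Mcm6*). Their median log2 fold change, -0.05 in the main fit, moved by less than the spread of the library medians (0.20 on the log2 scale), with 1 exception. With the 3 high-striatal libraries left out it was 0.15. Over all genes, 611 were called, against 1423 with DESeq2, 404 without a filter, 406 with at least 10 counts in every library, 150 with the replicate block, 201 without the high-striatal libraries and 223 to 500 with 1 library left out. Of the further cell cycle genes, 3 were called, against 8 with DESeq2, 1 without a filter, 1 with the block, 0 without the high-striatal libraries and 1 to 3 with 1 library left out.

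Same-numbered libraries come from different animals, and their deviations correlated at -0.30, -0.05 and -0.05, which shows no pairing by number. With 3 libraries per genotype, and striatal sums that differ between libraries, the correlations cannot exclude a shared batch or litter. The block left 0 proliferation genes called. With the striatal level as a covariate the sign turned for *Mki67* (-0.15), *Ccnb1* (-0.12), *Aurka* (-0.013), *Gins2* (-0.45) and *Rrm2* (0.026), and without the high-striatal libraries for *Top2a* (0.15), *Cenpe* (0.28) and *Rrm2* (0.41). With 1 library left out, ranges were -0.10 to 0.52 for *Mki67*, -0.46 to 0.12 for *Top2a*, -0.38 to 0.13 for *Cdk1*, -0.027 to 0.24 for *Aurka*, -1.22 to 1.56 for *Gins2*, -0.16 to 0.20 for *Rrm2* and -0.27 to 0.0029 for *E2f1*. None of these genes was called in any setting, and the cause was not tested. The mitosis genes had as few as 8 counts in a library and a median biological coefficient of variation of 28.9%, which limits what their comparison can show.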
